A study of Homo sapiens with 6 samples.

Results

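The trefoil factor genes TFF1, TFF2 and TFF3, the gastrokine gene GKN1 and the carcinoembryonic antigen family genes CEACAM1, CEACAM5, CEACAM6, CEACAM7 and CEACAM19 were followed across 6 RNA sequencing libraries. They are 9 of the 62700 genes in the deposited table, and each was found there by its identifier. The genes were chosen by name with their read counts in these libraries known, that is, their levels, their spread between replicates and their difference between the groups. Those values are therefore given as a description. No test was run on these genes alone, and nothing is drawn from their calls in the fit over all genes.

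The cells carried the label MKN-45, a long-used line from a human gastric adenocarcinoma that is known for making carcinoembryonic antigen. In 3 libraries the cells were labelled NNMT knockdown, by a transfected RNA against NNMT, a nicotinamide methyltransferase gene, and in 3 they were controls. All cultures were harvested 48 h after transfection. The labels call the RNA siRNA in one field and shRNA in others, and they call the controls both untouched and transfected with a negative-control RNA. NNMT itself had 2, 8 and 14 reads in replicates 1, 2 and 3 labelled knockdown and 0, 8 and 12 reads in control replicates 1, 2 and 3. That is 0.183 ± 0.137 CPM (counts per 1000000 counted reads) in libraries labelled knockdown and 0.127 ± 0.112 CPM in control libraries (SD, n = 3 each). For this difference, an exact two-sided permutation test gave p = 0.6, where 0.1 is the smallest p that 3 against 3 libraries allow. The targeted gene was thus not seen to be lower, and the libraries are called by their labels.

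Library totals ran from 40558680 to 45405621 reads in the libraries labelled NNMT knockdown and from 41591436 to 56067484 reads in control libraries. Reads fell on 28539 to 29266 genes in the libraries labelled NNMT knockdown and on 28367 to 30679 genes in the controls, and 3.90% to 4.82% of reads over all 6 were mitochondrial. Of 8 epithelial markers, all had reads, with summed levels of 1670 to 1972 CPM in libraries labelled knockdown and 1672 to 1747 CPM in controls. KRT19 and CLDN4 gave the largest parts, with means of 993 and 387 CPM over the 6 libraries, so the sum hides the spread of weaker markers. KRT8 ran from 168 to 194 CPM over the 6 libraries. ESRP1, named after its values were seen, had 0.148, 2.09 and 0.782 CPM in libraries labelled knockdown. In controls it had 0.0481, 0.498 and 6.88 CPM. Of 10 markers of gastric surface mucous cells, 5 stayed below 1 CPM in every library. Of 9 genes listed for gastric chief and parietal cells 8 did. The exception was MUC6, which is a gland mucin gene and not a marker of chief or parietal cells. Among the gastric surface markers GKN1 and CTSE had 0 reads, while MUC5AC, VSIG1, ANXA10, TFF1 and TFF2 were above 1 CPM in at least 1 library, so the labelled gastric origin was met by part of the markers. Of 11 intestinal markers, 10 were below 1 CPM throughout, MUC2 being the exception. Fibroblast markers summed to 327 to 614 CPM in libraries labelled knockdown and 316 to 409 CPM in controls, nearly all from the collagen genes COL1A1 and COL3A1, while LUM and PDGFRB stayed below 1 CPM, ACTA2 reached 1.20 CPM in replicate 3 labelled knockdown and DCN reached 2.35 CPM in control replicate 3. The 5 leukocyte markers summed to 0.374 to 0.740 CPM in libraries labelled knockdown and 0.696 to 1.41 CPM in controls. The part of these other cell types in the results was not tested.

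Trefoil factors are small secreted peptides held in a clover-leaf fold by disulphide bonds. They are released with mucins and are known for helping the gut lining close after injury. In the healthy stomach TFF1 comes from surface mucous cells together with GKN1, a secreted protein with a BRICHOS domain, and TFF2 from mucous neck cells, while TFF3 is the trefoil factor of intestinal goblet cells. The CEACAM proteins are immunoglobulin-like cell adhesion molecules. CEACAM1 spans the membrane and carries inhibitory signalling motifs, CEACAM5 is the carcinoembryonic antigen measured in the blood of patients with gut cancers, and CEACAM5, CEACAM6 and CEACAM7 are held in the membrane by a glycosylphosphatidylinositol anchor. CEACAM19 is a less studied transmembrane member of the family.

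The RefSeq promoter table (GRCh38.p14) held 5 of the 9 genes, namely GKN1, CEACAM1, CEACAM5, CEACAM6 and CEACAM7. Those of the 4 CEACAM genes are shown because they are related in sequence, while the levels of their genes differ widely in these libraries. Each runs from 250 bases before to 50 bases after the RefSeq start, 5′ to 3′. CEACAM5 is at chr19:41708376-41708675 on the plus strand, CEACAM6 at chr19:41755280-41755579 on the plus strand, CEACAM7 at chr19:41688221-41688520 on the minus strand and CEACAM1 at chr19:42528432-42528731 on the minus strand. Capitals mark the E-box letters CACGTG in CEACAM5 and CEACAM6, and the aligned hexamer in CEACAM7 and CEACAM1.
CEACAM5: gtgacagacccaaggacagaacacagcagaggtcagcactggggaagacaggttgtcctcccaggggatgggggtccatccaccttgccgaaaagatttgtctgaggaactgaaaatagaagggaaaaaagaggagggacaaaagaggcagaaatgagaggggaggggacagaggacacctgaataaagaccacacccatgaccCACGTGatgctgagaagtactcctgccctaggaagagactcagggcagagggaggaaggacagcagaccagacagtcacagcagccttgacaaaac
CEACAM6: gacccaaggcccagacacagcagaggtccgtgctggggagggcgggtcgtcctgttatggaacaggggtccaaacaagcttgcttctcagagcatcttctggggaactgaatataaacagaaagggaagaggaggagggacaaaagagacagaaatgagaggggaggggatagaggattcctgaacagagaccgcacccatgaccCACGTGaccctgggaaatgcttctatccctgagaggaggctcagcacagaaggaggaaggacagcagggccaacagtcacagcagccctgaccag
CEACAM7: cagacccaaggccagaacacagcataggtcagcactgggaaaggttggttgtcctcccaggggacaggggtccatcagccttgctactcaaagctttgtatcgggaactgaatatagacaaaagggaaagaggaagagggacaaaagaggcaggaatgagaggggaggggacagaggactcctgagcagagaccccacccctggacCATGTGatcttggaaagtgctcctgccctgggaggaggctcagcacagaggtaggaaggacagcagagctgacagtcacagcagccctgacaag
CEACAM1: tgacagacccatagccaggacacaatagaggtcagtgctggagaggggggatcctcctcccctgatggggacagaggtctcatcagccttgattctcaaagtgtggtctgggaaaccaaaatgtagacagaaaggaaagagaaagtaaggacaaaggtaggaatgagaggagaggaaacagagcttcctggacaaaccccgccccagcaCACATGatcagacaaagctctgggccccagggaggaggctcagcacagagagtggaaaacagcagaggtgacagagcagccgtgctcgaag

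Global alignment gave 81.4% identity between the promoters of CEACAM5 and CEACAM7, 80.5% between CEACAM6 and CEACAM7, and 74.7% between CEACAM5 and CEACAM6. The CEACAM1 promoter was the most distant, with 65.6% identity to CEACAM5, 68.2% to CEACAM6 and 71.2% to CEACAM7. The letters CACGTG, which read the same on both strands, began 46 bases before the start in CEACAM5 and 45 bases before it in CEACAM6. In CEACAM7 the aligned hexamer was CATGTG and in CEACAM1 it was CACATG. Over 35116 promoters of 300 bases, 7.26% held CACGTG. The GC box letters GGGCGG, searched on both strands, were found in CEACAM6 and CEACAM1 and in 44.95% of all promoters.

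The trefoil genes lie within 54.9 kb of each other on the minus strand of chromosome 21 (hg38). TFF1 (ENSG00000160182.3, 42362282 to 42366535) had 3.50, 7.598 and 7.36 CPM in replicates 1, 2 and 3 labelled NNMT knockdown, against 1.63, 3.15 and 8.36 CPM in control replicates 1, 2 and 3. Control replicate 3 was the highest and control replicate 1 the lowest, so the control libraries enclosed all of those labelled knockdown. In bulk RNA, fewer cells that make a transcript and less transcript per cell cannot be told apart. TFF1 averaged 6.15 ± 2.30 CPM in libraries labelled knockdown and 4.38 ± 3.53 CPM in controls (SD, n = 3 each).

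TFF2 (ENSG00000160181.9, 42346357 to 42350997) was the least abundant of the 3 trefoil genes in reads, with 1.16, 0.639 and 2.83 CPM in libraries labelled NNMT knockdown, against 0.553, 1.33 and 3.50 CPM in controls. Replicate 3 of each group was high and the groups overlapped. Its mean was 1.54 ± 1.15 CPM in libraries labelled knockdown and 1.79 ± 1.53 CPM in controls (SD, n = 3 each).

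TFF3 (ENSG00000160180.17, 42311667 to 42315409) had 2.71, 3.90 and 15.9 CPM in libraries labelled NNMT knockdown, against 0.481, 4.73 and 15.8 CPM in controls. The third library of each label stood at nearly the same high level, and control replicate 1, with 20 reads, stood alone at the bottom. From the lowest to the highest library TFF3 spanned 33.1-fold, against 5.12-fold for TFF1 and 6.32-fold for TFF2. The means were 7.50 ± 7.30 CPM in libraries labelled knockdown and 7.01 ± 7.92 CPM in controls, each with an SD about as large as the mean (n = 3 each).

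GKN1 (ENSG00000169605.7, chromosome 2, 68974573 to 68980980, plus strand) had 0 reads in all 6 libraries. A count of 0 allows up to 3 reads, which is 0.0535 to 0.074 CPM depending on the library, as far as counting error goes.

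**Figure D1:**
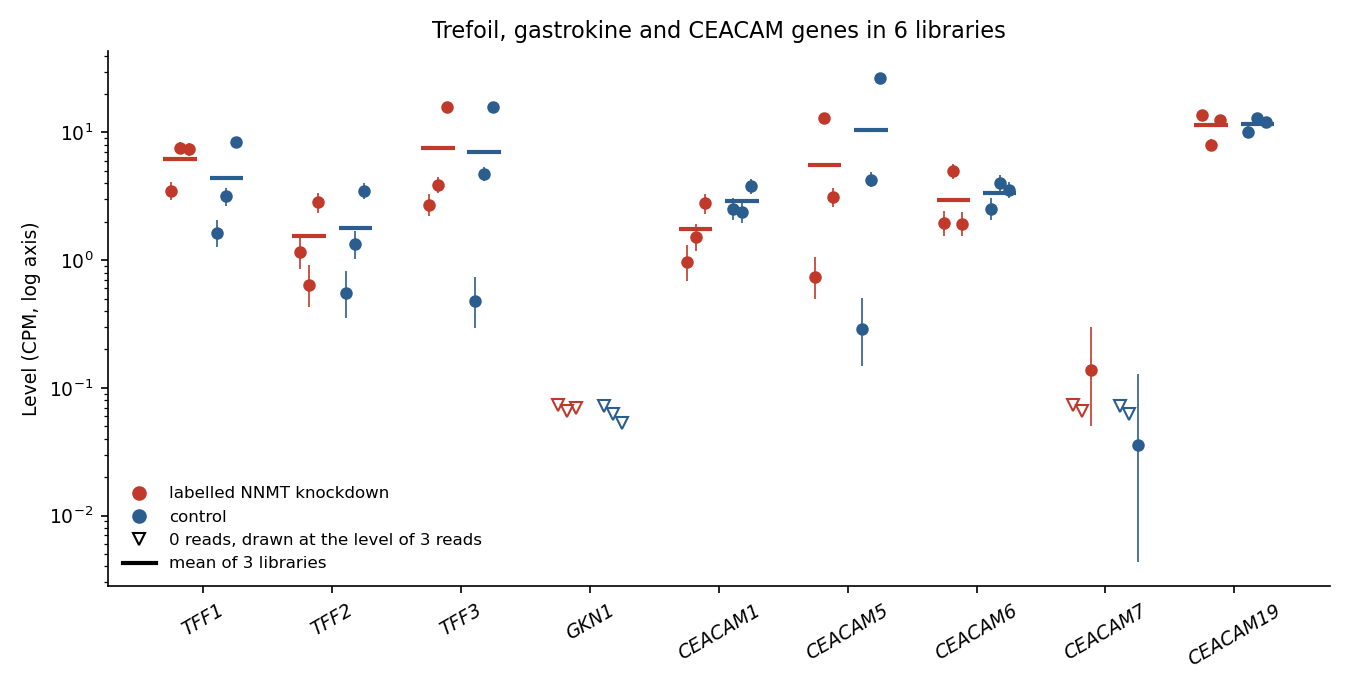
Level of each gene in CPM on a log axis, with libraries labelled NNMT knockdown on the left of each pair and control libraries on the right; vertical lines are exact 95% Poisson intervals of the reads, bars are means and triangles mark 0 reads. CEACAM5 and TFF3 are spread most widely, CEACAM19 least, and GKN1 has triangles in all 6 libraries.

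The CEACAM members lie on chromosome 19 over 3011 kb, with CEACAM7, CEACAM5 and CEACAM6 side by side at one end and CEACAM19 at the other. CEACAM5 (ENSG00000105388.17, 41708585 to 41730433, plus strand) had 30, 587 and 135 reads in libraries labelled NNMT knockdown, against 12, 206 and 1500 reads in controls. Scaled to the library totals this was 0.740, 12.9 and 3.11 CPM in libraries labelled knockdown, against 0.289, 4.27 and 26.8 CPM in controls. The highest and the lowest library were both controls, and they differed by 92.7-fold.

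Counting error was small beside that range. The exact 95% Poisson interval of CEACAM5 was 0.149 to 0.504 CPM in control replicate 1 and 25.4 to 28.1 CPM in control replicate 3. The means were 5.59 ± 6.46 CPM in libraries labelled knockdown and 10.4 ± 14.3 CPM in controls (SD, n = 3 each). Most reads are mates counted one by one, so these intervals are too narrow.

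CEACAM6 (ENSG00000086548.9, 41750977 to 41772211, plus strand), also found on granulocytes, had 1.95, 4.96 and 1.93 CPM in libraries labelled NNMT knockdown, against 2.52, 4.02 and 3.57 CPM in controls. Replicate 2 labelled knockdown was the highest library and the other 2 with that label the lowest. The means were 2.95 ± 1.74 CPM in libraries labelled knockdown and 3.37 ± 0.768 CPM in controls (SD, n = 3 each). CEACAM6 therefore varied by 2.56-fold over the same libraries in which its neighbour CEACAM5 varied by 92.7-fold.

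CEACAM7 (ENSG00000007306.15, 41673303 to 41706976, minus strand), a gene known for the colon lining, had 0, 0 and 6 reads in libraries labelled NNMT knockdown, against 0, 0 and 2 reads in controls. The 8 reads lay in replicate 3 of each group.

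CEACAM1 (ENSG00000079385.23, 42507304 to 42561234, minus strand) had 0.962, 1.52 and 2.78 CPM in libraries labelled NNMT knockdown, against 2.52, 2.36 and 3.78 CPM in controls. The groups overlapped through replicate 3 labelled knockdown, which was above control replicates 1 and 2. The means were 1.76 ± 0.934 CPM in libraries labelled knockdown and 2.89 ± 0.776 CPM in controls (SD, n = 3 each).

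CEACAM19 (ENSG00000186567.14, 44662278 to 44684359, plus strand) was the steadiest member, with 13.7, 7.99 and 12.6 CPM in libraries labelled NNMT knockdown, against 10.2, 12.96 and 12.1 CPM in controls. Replicate 2 labelled knockdown was the lowest library and replicate 1 with that label the highest. The means were 11.4 ± 3.02 CPM in libraries labelled knockdown and 11.7 ± 1.43 CPM in controls (SD, n = 3 each).

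Reads that touch exons of more than 1 gene are left out by the counting command in the file header. Bases in exons of another gene made up 3.35% of the exons of CEACAM1 (shared with LIPE-AS1 on the other strand), 3.49% of CEACAM5, 4.67% of CEACAM6 and 2.34% of CEACAM19 (shared with PVR), and none of the exons of the other 5 genes. In the GENCODE 29 transcripts, no window of 150 bases of the trefoil genes, GKN1, CEACAM1, CEACAM7 or CEACAM19 occurred in another gene. For CEACAM5, 10.7% of the windows also occurred in AC243967.1, and for CEACAM6 0.03% did.

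Levels between genes were compared per kilobase of merged exon (RPKM). TFF1 was the highest with a mean of 10.7 ± 5.76 RPKM over the 6 libraries, and TFF3 came next with 7.87 ± 7.39 RPKM (SD, n = 6 each). TFF2, CEACAM19 and CEACAM5 followed with 2.39 ± 1.74, 2.24 ± 0.410 and 2.01 ± 2.57 RPKM. CEACAM6 had 1.07 ± 0.415 RPKM, CEACAM1 0.420 ± 0.179 RPKM and CEACAM7 0.0109 ± 0.0209 RPKM, and GKN1 was at 0.

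Few neighbours in this order were separated in each library. CEACAM6 lay above CEACAM1 in 6 of 6 libraries, and CEACAM1 above CEACAM7 in 6 of 6. TFF1 lay above TFF3 in 4 of 6 libraries, with a mean difference of 2.84 ± 4.68 RPKM, and TFF3 above TFF2 in 5 of 6, with a mean difference of 5.49 ± 5.74 RPKM. TFF2 lay above CEACAM19 in 2 of 6 libraries, CEACAM19 above CEACAM5 in 4 of 6 and CEACAM5 above CEACAM6 in 3 of 6. In each of these 5 pairs from TFF1 down to CEACAM6 the SD of the difference exceeded its mean, so no 2 neighbours among them were separated beyond the spread. Genes further apart in the order were not compared.

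**Figure D2:**
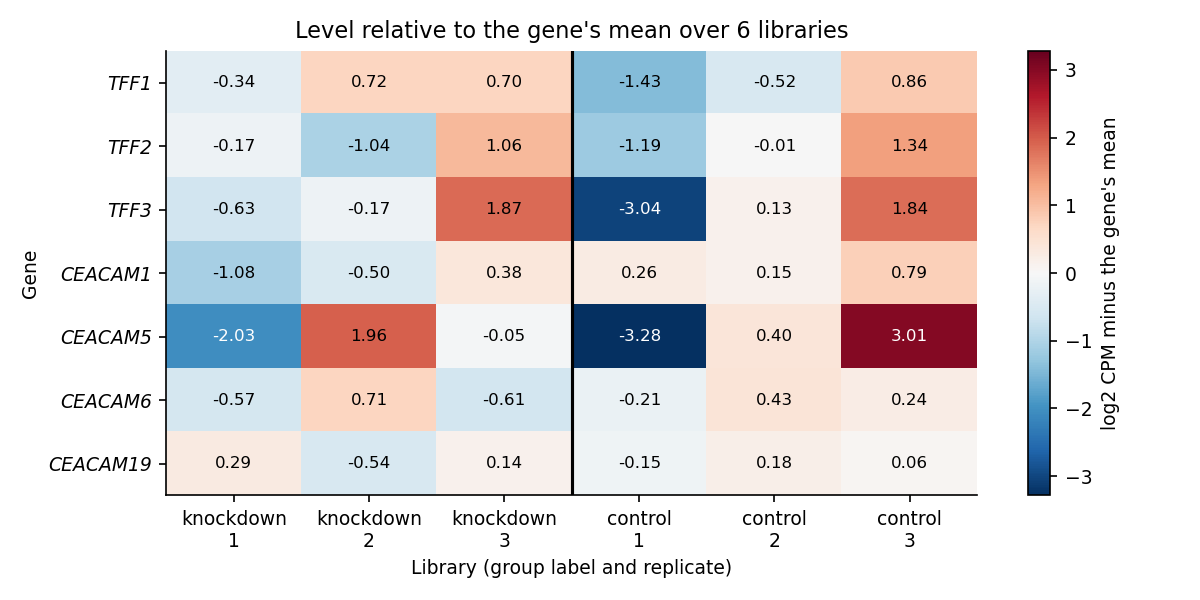
Level of each tested gene relative to its own mean over the 6 libraries, in log2 units, with libraries labelled NNMT knockdown left of the line and control libraries right of it. Control replicate 1 is low and control replicate 3 high for the trefoil genes and CEACAM5, while CEACAM19 stays between -0.54 and 0.29.

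The 7 members that passed the filter on low counts were described by the SD of log2 CPM within groups, a measure of the spread between replicates. CEACAM5 had an SD of 2.65 and TFF3 one of 1.99, against a median of 0.21 over the 20250 tested genes. Of all tested genes, 99.99% had a smaller SD than CEACAM5 and 99.9% a smaller SD than TFF3. TFF2 followed with 1.16 and TFF1 with 0.92, above 98.2% and 96.0% of tested genes. CEACAM6 and CEACAM1 each had an SD of 0.58 and CEACAM19 one of 0.33, above 85.8%, 85.7% and 67.5% of tested genes.

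Genes of similar level mostly had smaller spreads. Among the 6197 tested genes with a mean of 1 to 15 CPM, the median SD was 0.26, and 97.7% of them had a smaller SD than TFF1. In that range of levels 61 genes, or 0.984%, spanned at least 10-fold between libraries, and TFF3 and CEACAM5 were among them. Control replicate 1 was the lowest library for the trefoil genes and CEACAM5, and control replicate 3 the highest for TFF1, TFF2 and CEACAM5. TFF3 was as high in replicate 3 labelled knockdown, with 29266 detected genes and 43455163 reads, as in control replicate 3. The 2 control libraries also differed in detected genes. Control replicate 3 had the most genes with a read, 30679, and the largest total, 56067484 reads, while control replicate 1 had the fewest genes, 28367. The part of these values in the spread was not tested.

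**Figure D3:**
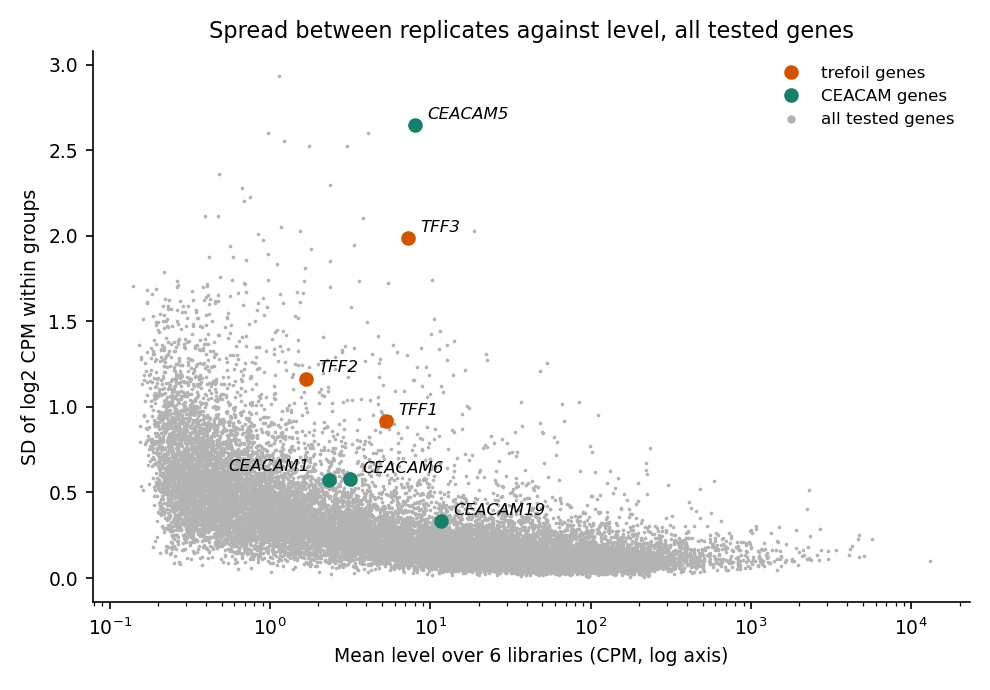
SD of log2 CPM within groups for each of the 20250 tested genes (grey) against the mean level on a log axis, with trefoil genes in orange and CEACAM genes in green. CEACAM5 at 2.65 and TFF3 at 1.99 stand far above genes of similar level, and CEACAM19 at 0.33 lies within the cloud.

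The comparison of the libraries labelled NNMT knockdown with the controls asked how gene levels differ after transfection against NNMT. Of the 7 tested members 0 were called at an adjusted p under 0.05 in edgeR's quasi-likelihood test, against a background of 0% (0 of 20250 genes). At an unadjusted p under 0.05 there were 0 of the 7 members, against 4.03% of all tested genes. DESeq2 and edgeR without a filter called 0 members as well, against backgrounds of 0.0395% and 0.19%, and limma-voom also called 0, against 0%. The groups did not overlap for 0 of the 7 members, against 9.17% of all tested genes. Because the contrast was part of how the genes were picked, nothing is read from these shares.

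Of the 7 tested members 2 had a fitted log2 fold change above 0, and their median was -0.20, against 0.0033 for all tested genes. CEACAM1 had a log2 fold change of -0.72 (SE 0.364), and its fold had a 95% interval of 0.347 to 1.07. It stayed below 0 in 15 of 15 alternative fits, from -1.22 without replicate 3 labelled knockdown to -0.44 without replicate 1 with that label. The alternative fits reuse the same libraries, and the genes were picked with their differences known. A kept sign is therefore a description and no support for a difference. CEACAM6 had a log2 fold change of -0.20 (SE 0.367) and a 95% interval of the fold from 0.492 to 1.55. CEACAM19 had one of -0.03 (SE 0.203) and a fold between 0.716 and 1.34, the narrowest of the 7.

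For CEACAM5 and TFF3 the intervals were too wide to describe a direction. The fold of CEACAM5 was 0.535, its 95% interval was 0.0227 to 12.6, and its log2 fold change was -0.90 (SE 1.71) with all libraries but 1.26 without control replicate 3. For TFF3 the fold was 1.07, and its 95% interval ran between 0.0902 and 12.8. Its log2 fold change was 0.10 (SE 1.34) with all libraries, -1.08 when replicate 3 labelled knockdown was left out, and 1.51 when control replicate 3 was.

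TFF1 had a log2 fold change of 0.49 (SE 0.627) and a 95% interval of the fold from 0.478 to 4.11. It remained above 0 when any 1 library was left out, from 0.11 without control replicate 1 to 1.35 without control replicate 3. TFF2 had a log2 fold change of -0.22 (SE 0.774) and an interval of the fold from 0.236 to 3.14, and it was 0.70 without control replicate 3.

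**Figure D4:**
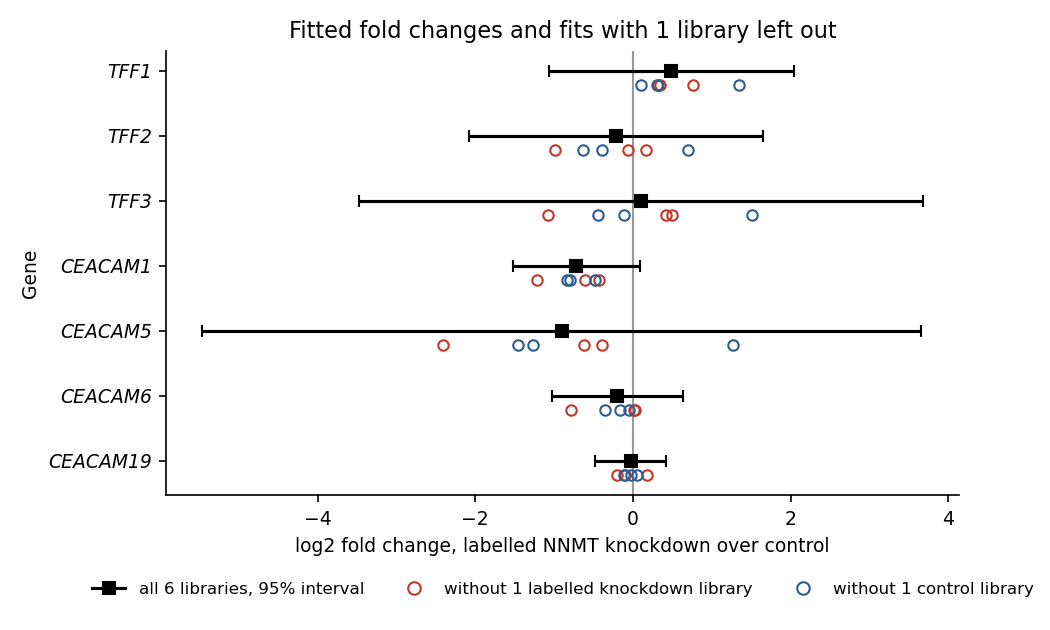
Fitted log2 fold change, libraries labelled NNMT knockdown over control, for the 7 tested genes; squares with bars are all 6 libraries with a 95% interval, and circles are fits without 1 library, coloured by the group of the library left out. The intervals of all 7 include 0. The circles of CEACAM1 all lie below 0 and those of TFF1 all lie above 0.

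The likeness of 2 genes was measured over the 6 libraries, with the log2 CPM of each centred on its own mean. The measure was the root mean square difference between the 2 centred profiles. A small value means the same rises and falls, or that both genes changed little. The smallest values among the members were 0.66 between CEACAM1 and CEACAM19, 0.70 between CEACAM6 and CEACAM19 and 0.74 between CEACAM1 and CEACAM6. Yet in replicate 2 labelled knockdown CEACAM6 was at its highest and CEACAM19 at its lowest. Among the 3 trefoil genes the difference was 0.79 between TFF1 and TFF2, 0.94 between TFF2 and TFF3 and 1.02 between TFF1 and TFF3. CEACAM5 was nearest to TFF3 among the members, at 1.40, and 1.88 from CEACAM6. These values depend on the size of a gene's own changes, which was 2.16 for CEACAM5 and 0.27 for CEACAM19.

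The genes with a mean of at least 5 CPM whose profile lay nearest to that of TFF3 were XAF1 at 0.49, MX2 at 0.67 and IFITM1 at 0.68, out of 11517 searched. XAF1, which encodes an XIAP-associated factor, had 3.50, 3.81 and 10.2 CPM in libraries labelled NNMT knockdown, against 0.481, 2.09 and 12.6 CPM in controls. It was lowest in control replicate 1 and high in replicate 3 of each group. MX2, a dynamin-like GTPase gene, had 6.58, 7.95 and 14.8 CPM in libraries labelled knockdown, against 1.01, 3.21 and 28.2 CPM in controls. For TFF1 the nearest were the integrin gene ITGB3 at 0.28, PARP12 at 0.32 and SAMD9L at 0.35, and for TFF2 they were the cyclin gene CCNA1 at 0.27, UBA7 at 0.32 and TNFSF10 at 0.36.

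CEACAM5 had no close match. Of the genes searched, the nearest to CEACAM5 were the mucin gene MUC5B at 1.28, SPOCK1 at 1.33 and IGFBP5 at 1.36. MUC5B had 2.84, 11.6 and 15.3 CPM in libraries labelled NNMT knockdown, against 4.18, 10.3 and 32.2 CPM in controls, and was likewise highest in control replicate 3. CEACAM1 was matched most closely by PTPRG, a receptor phosphatase gene, at 0.11, with MCTP2 at 0.19 and UGT8 at 0.23. For CEACAM6 the nearest were BMERB1 at 0.20, CABLES1 at 0.21 and SCUBE3 at 0.23. For CEACAM19 they were SGK2 at 0.05, TBC1D3L at 0.06 and CTH at 0.06.

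Relatives and partners of the trefoil and gastrokine genes formed a list of 16 genes, of which 12 were tested. In edgeR's quasi-likelihood test 0 rose and 0 fell, against 0% of all tested genes, and the median log2 fold change was 0.21. The gastrokine relative GKN2 had reads in control replicate 1 alone and CTSE, a gastric protease gene, had 0 reads. The mucin genes that are known to travel with trefoil factors were present. MUC5AC, the partner of TFF1 in surface mucus, had 3.67, 42.5 and 4.40 CPM in libraries labelled NNMT knockdown, against 8.97, 3.75 and 5.35 CPM in controls, so it was high in replicate 2 labelled knockdown alone. MUC6, the partner of TFF2 in gland mucus, had 34.0, 52.0 and 64.9 CPM in libraries labelled knockdown, against 25.7, 44.6 and 84.1 CPM in controls. MUC2, the goblet cell mucin, averaged 17.2 ± 0.892 CPM in libraries labelled knockdown and 12.4 ± 5.16 CPM in controls (SD, n = 3 each).

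Receptor genes on that list included EGFR, at 180 ± 21.5 CPM in libraries labelled NNMT knockdown and 158 ± 15.5 CPM in controls, and the atypical chemokine receptor gene ACKR3. ACKR3 had 13.6 ± 5.56 CPM in libraries labelled knockdown and 9.50 ± 4.15 CPM in controls (SD, n = 3 each). MUC1, a membrane mucin gene, had 10.2 ± 2.98 CPM in libraries labelled knockdown and 8.02 ± 1.30 CPM in controls (SD, n = 3 each).

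The rest of the CEACAM family and its PSG relatives, the pregnancy-specific glycoproteins, were close to silent. Of 20 identifiers for 19 listed symbols, 20 stayed below 1 CPM in every library and 6 had 0 reads in all of them. Their summed level was 1.13 to 1.36 CPM in libraries labelled NNMT knockdown and 0.788 to 1.46 CPM in controls. PSG9 and PSG5 were the 2 that passed the filter, with 0 rising and 0 falling, against 0% of all tested genes. Granulocyte markers were low too, with 7 of 8 below 1 CPM in every library, CEACAM8 at 2 reads in all and MPO and S100A8 at 0. The exception was S100A9, at 1.13, 1.06 and 6.81 CPM in libraries labelled knockdown, against 1.11, 6.41 and 7.71 CPM in controls. The summed granulocyte markers ran from 1.41 to 7.06 CPM in libraries labelled knockdown and from 1.39 to 7.78 CPM in controls, and their part in the CEACAM6 level was not tested.

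Of 34 transcription factor genes known for trefoil or CEACAM genes, 25 were tested. In edgeR's test 0 rose and 0 fell, against 0% of all tested genes, and their median log2 fold change was 0.06. USF1 and USF2, whose products are known to bind E-boxes of the CEACAM5 promoter, such as the one shown above, were named after their values were seen. USF1 had 75.6, 70.8 and 77.1 CPM in libraries labelled NNMT knockdown, against 73.3, 73.0 and 72.5 CPM in controls. USF2 had 76.7, 69.9 and 60.2 CPM in libraries labelled knockdown, against 68.8, 65.3 and 56.8 CPM in controls. The gut factor genes CDX1, CDX2, GATA4 and GATA5 had 0 reads.

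SPDEF, a goblet cell factor, had the lowest p of that list. Its level was 103, 91.4 and 75.0 CPM in libraries labelled NNMT knockdown, against 72.1, 69.5 and 71.3 CPM in controls (log2 fold change 0.34, SE 0.114). The groups did not overlap, as for 2 of the 25 tested genes of that list and 9.17% of all tested genes. ESR1, the oestrogen receptor through which TFF1 is known to be induced in breast cells, was at 0.312 ± 0.136 CPM in libraries labelled knockdown and 0.797 ± 0.334 CPM in controls (SD, n = 3 each). SP1 was at 134 ± 8.76 CPM in libraries labelled knockdown and 153 ± 10.9 CPM in controls (SD, n = 3 each). Each of these genes had an edgeR adjusted p of 0.9995. The abundant members HIF1A, SOX9, SP3, KLF5 and FOXA1 had log2 fold changes between -0.25 and 0.07.

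Ligands and signalling partners of CEACAM proteins were well expressed. Of 19 listed genes 16 were tested, 0 rose and 0 fell, against 0% of all tested genes, and the median log2 fold change was -0.03. PTPN11, whose phosphatase binds the CEACAM1 tail, had 287 ± 28.4 CPM in libraries labelled NNMT knockdown and 304 ± 20.7 CPM in controls (SD, n = 3 each). SRC, the kinase that phosphorylates that tail, had 285 ± 41.8 CPM in libraries labelled knockdown and 251 ± 18.9 CPM in controls (SD, n = 3 each). The lowest p values were those of LGALS3, INSR and EGFR, for which edgeR's adjusted p was 0.9995. LGALS3 had 136 ± 15.97 CPM in libraries labelled knockdown and 109 ± 16.1 CPM in controls, and INSR had 35.0 ± 2.04 CPM in libraries labelled knockdown and 41.2 ± 3.26 CPM in controls (SD, n = 3 each).

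Reads were counted for nearly all genes that build the glycosylphosphatidylinositol anchor, PIGY with 0 reads in every library being the exception. Reads that touch more than 1 gene are left out, and overlap of PIGY exons with other genes was not checked. Of 29 listed genes 28 were tested, 0 rose and 0 fell, against 0% of all tested genes, and the median log2 fold change was 0.01. Their summed level was 1361 to 1430 CPM in libraries labelled NNMT knockdown and 1358 to 1422 CPM in controls. PIGT, a subunit of the transamidase that attaches the anchor, had 293 ± 33.2 CPM in libraries labelled knockdown and 273 ± 13.7 CPM in controls (SD, n = 3 each). DPM3 had the lowest p, at 15.04 ± 0.681 CPM in libraries labelled knockdown and 12.1 ± 1.37 CPM in controls (SD, n = 3 each). Its adjusted p from edgeR was 0.9995.

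The neighbours of the members were read from the coordinates in the deposited table. Within 200 kb of the trefoil genes lay 11 other genes, of which 1 reached 5 CPM. That was SLC37A1, a sugar-phosphate transporter gene, at 13.5 ± 2.35 CPM in libraries labelled NNMT knockdown and 14.6 ± 4.16 CPM in controls (SD, n = 3 each). Its SD of log2 CPM within groups was 0.32. The next gene beyond TFF1, the serine protease gene TMPRSS3, was named after its values were seen. It had 0.148, 2.29 and 1.08 CPM in libraries labelled knockdown, against 0.144, 0.394 and 1.80 CPM in controls, with an SD of 1.74. ABCG1, on the other side of the trefoil genes and likewise named afterwards, had an SD of 1.67 at a mean of 0.628 CPM. Over the 6 other genes tested there the median SD was 0.61, against 0.21 over all tested genes, but their levels were unlike. Apart from SLC37A1 the tested neighbours had means of 0.622 to 0.977 CPM, against a median of 9.57 CPM over all tested genes.

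Between CEACAM7 and CEACAM19 lay 146 other genes, 68 of them tested, with a median SD of log2 CPM of 0.21, the same as over all tested genes. Abundant ones included the ribosomal protein gene RPS19 with an SD of 0.14, ARHGEF1 with 0.08, the potassium channel gene KCNN4 with 0.04, the urokinase receptor gene PLAUR with 0.10 and SMG9 with 0.07. CEACAM5, with an SD of 2.65, varied more than each of these 5 neighbours, but their levels were unlike. The 5 had means of 53.5 to 320 CPM over the 6 libraries, against 8.01 CPM for CEACAM5. Over all 68 tested neighbours the largest SD was 1.06. CEACAM6, the next CEACAM gene along the chromosome, had an SD of 0.58.

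**Figure D5:**
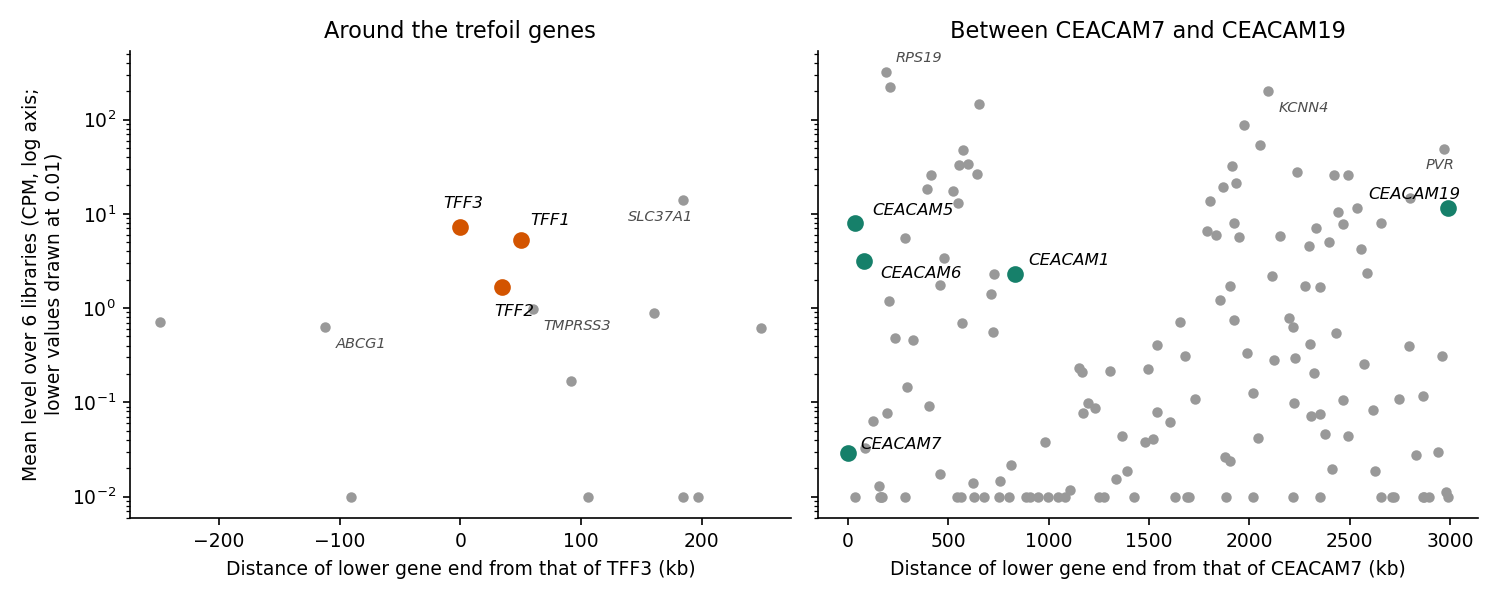
Mean level over the 6 libraries on a log axis against distance along the chromosome in kb, for genes around the trefoil genes (left) and from CEACAM7 to CEACAM19 (right), with members coloured and other genes in grey. Of the 11 other genes around the trefoil genes 1 reached 1 CPM, while the CEACAM region held 48 such genes.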

How the data were processed

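The authors deposited raw read counts per gene, made by featureCounts 2.0.6 from the GENCODE 44 annotation of hg38, per the file headers. Pairs with 1 mate aligned and chimeric pairs were dropped, mates were not joined into fragments and no strand option was set, per the file headers, so overlapping genes on opposite strands cannot be told apart. Of low counts from 2 to 10 reads, 73.4% to 76.7% were even. Merged exon lengths in bases come from the same deposited table. For the aligner, nothing is given in the sources used here.

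All 62700 genes matched a symbol. CPM and RPKM were computed here from library totals. The main test was edgeR 4.0.16 (R 4.3.3; filterByExpr, TMM, robust quasi-likelihood, group as the sole term) over 20250 genes with Benjamini-Hochberg adjustment at 0.05, checked on simulated data. SEs were derived from each fold change with its F statistic. Alternatives were other scalings and filters, DESeq2 1.42.0, limma 3.58.1 (voom), the replicate number as a block, halved counts and each library left out. Pairs of libraries differed by a chi-square of 11.97 to 43.96 per gene, so none were duplicates. The labels name independent biological replicates. Members, lists and tests were chosen with earlier results of these data known. Named genes were the 9 members, NNMT, the most abundant (mean of at least 10 CPM, up to 6) and up to 3 lowest-p genes of each list, up to 6 neighbours at 5 CPM per locus, and the 3 nearest profiles of each member at 1 CPM or more; not all are printed.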

Additional observations from a re-analysis of the deposited data

How the results depend on the processing

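The count of genes called by edgeR was 0 with all libraries, 72 without a filter on low counts, 8 with DESeq2 and 1 without control replicate 3; over the fits that left out 1 library it ran from 0 to 1. Of the members and listed genes 0 were called by edgeR, by DESeq2 or without a filter. Leaving out 1 library moved the log2 fold change of CEACAM6 between -0.784 and 0.029, that of CEACAM19 between -0.20 and 0.18, that of CEACAM5 between -2.41 and 1.26, that of TFF2 between -0.99 and 0.70 and that of TFF3 between -1.08 and 1.51. By reads per kilobase instead of CPM, 2 of the 9 members kept their rank, since the lengths differ.

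Same-numbered libraries did not deviate together in every pair (correlations of 0.06, -0.09 and 0.20 for numbers 1, 2 and 3), so the numbers were not taken to pair the samples. With the replicate block edgeR called 0 genes, and the log2 fold changes were 0.71 for TFF1, -0.13 for TFF2 and -0.21 for CEACAM5. Reads are few for CEACAM7, with 8 in all, and differences there are limited by depth. TFF2 had 482 reads in all, and its log2 fold change was -0.232 with halved counts, against -0.215 in the main fit.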
